A study of Homo sapiens with 10 samples.

Results

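Retinoic acid synthesis, binding and receptor genes were followed in RNA from the human cell line HAP1 with and without a knockout of RBM4, which encodes an RNA-binding regulator of splicing and translation. The set holds 10 of the 58051 annotated genes in the deposited tables: ALDH1A2, ALDH1A3, RDH10, DHRS3, CRABP1, CRABP2, RARA, RARB, RARG and CYP26B1. They were taken by symbol, as the retinoic acid genes around ALDH1A2, which was nearly absent from both knockout clones. The fall of ALDH1A2 against wild type is therefore the reason for the choice, and it is described below without a test.

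HAP1 is a near-haploid adherent line that derives from the leukaemia line KBM-7. RNA came from RBM4 knockout clone 2 (n = 2 paired-end libraries), RBM4 knockout clone 1 (n = 3) and wild type HAP1 (n = 3), with 1 single-end library of an RBM4 knockout clone and 1 of wild type. All were grown in the same serum-containing medium, and the labels name no treatment and no added retinoid. Each knockout group is a single clone, so an effect of the knockout and a property of that clone cannot be told apart within it. Whether replicates came from separate cultures is not stated, so a p-value here reflects only how far these libraries spread, which may be technical. The labels do not state which clone the single-end knockout library came from.

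Total counts lay between 33192095 and 55617525 per paired-end library. RBM4 stood at 22.3 to 25.8 CPM (counts scaled to library size with trimmed-mean factors) in the 5 knockout libraries and at 78.7 to 79.8 CPM in the 3 wild type libraries. The 6 blood-cell markers PTPRC, CD33, MPO, SPI1, GATA1 and HBG1 were nearly absent, with 1 to 10 counts summed over all 6 in a library and 3 of them at 0 in every paired-end library. Library composition also moved with genotype: the rank correlation between a gene's GC content and its deviation from the mean over libraries was -0.41 to -0.25 in wild type and -0.050 to 0.39 in the clones. Sample numbers in the column names were 1 to 5 for all wild type libraries and for library 1 of each clone, and 11 to 13 for the other knockout libraries, so values within the low numbers are given for those of the 10 genes that the test called and wherever they change a call. No wild type library has a high number. Within the low numbers each clone has 1 library, so wild type supplies all the spread and a p-value assumes that the lone library varies like wild type. The part of GC content and of sample number in the results was not tested beyond those values, a GC-corrected fit and a fit with a term for the sample-number range.

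Retinoic acid is made from vitamin A inside the cell in a pair of oxidation steps. RDH10 oxidises retinol to retinaldehyde, DHRS3 reduces it back, and the ALDH1A enzymes turn retinaldehyde into retinoic acid, the step that cannot be reversed. CRABP proteins bind the acid in the cytoplasm, CYP26 enzymes break it down, and the receptors RARA, RARB and RARG, paired with RXR partners, bind DNA and raise or lower their target genes.

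ALDH1A2 (ENSG00000128918, chromosome 15, 57953424 to 58497866, minus strand), the main retinaldehyde dehydrogenase of the early embryo, had 23 and 28 counts in the clone 2 libraries, or 0.569 and 0.595 CPM. In clone 1 it had 4, 8 and 1 counts, or 0.121, 0.144 and 0.0247 CPM. Wild type libraries had 2233, 1699 and 2099 counts, or 53.0, 48.5 and 50.9 CPM. All 5 knockout libraries lay far below all 3 wild type libraries, and clone 1 lay below clone 2 with no overlap. Summed counts put ALDH1A2 at 1.14% of the wild type level in clone 2 and at 0.198% in clone 1. Wild type was 87.3 times as high as clone 2 (exact 95% interval 66.3 to 117) and 506 times as high as clone 1 (295 to 950), where the intervals cover counting error only. In RNA from a whole culture, fewer expressing cells and less RNA per cell cannot be told apart.

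Residual ALDH1A2 RNA differed between the clones. Clone 2 exceeded clone 1 by 2.50 on the log2 scale (SE 0.35, adjusted p = 0.00103, edgeR's quasi-likelihood test with Benjamini-Hochberg adjustment over all 20747 features tested), with 51 counts in clone 2 against 13 in clone 1. The call held when any 1 library was left out. Within the low sample numbers, where each clone has 1 library, the difference was 2.20 with an adjusted p of 0.0832.

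The start region of ALDH1A2 is shown because this gene carries the largest difference among the 10. The sequence is the 250 bases before the more CpG-rich of its annotated RefSeq starts, chr15:58065712-58065961 on the minus strand of GRCh38.p14. It lies inside the longer GENCODE extent of the gene given above.
ALDH1A2: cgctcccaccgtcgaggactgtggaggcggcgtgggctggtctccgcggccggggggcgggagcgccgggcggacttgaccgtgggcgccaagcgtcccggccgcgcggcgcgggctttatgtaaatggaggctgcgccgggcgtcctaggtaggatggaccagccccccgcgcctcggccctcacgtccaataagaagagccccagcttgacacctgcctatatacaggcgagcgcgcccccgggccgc
With the next 50 bases included, this window has a GC content of 74.0% and 41 CpG dinucleotides, against medians of 58.7% and 14 over all 35116 windows of this kind. A second annotated start of ALDH1A2, in the window chr15:58013974-58014273, has 42.7% GC and 1 CpG. Counts per gene do not show which start the reads came from.

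**Figure D1:**
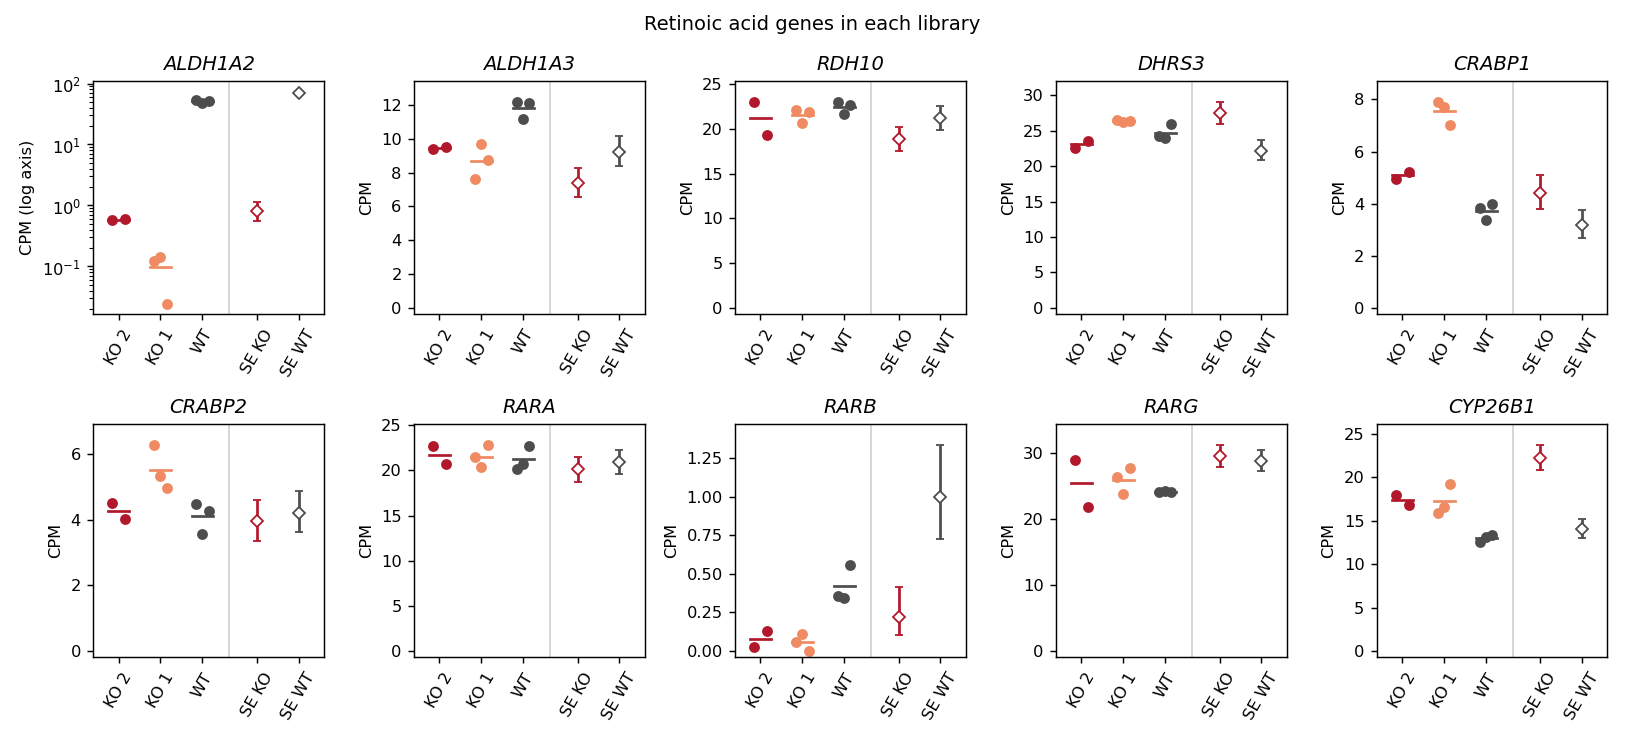
Levels of the 10 retinoic acid genes in each library, in CPM on a linear axis from 0 except for ALDH1A2, which has a log axis. Filled points are paired-end libraries of clone 2 (KO 2), clone 1 (KO 1) and wild type (WT) with a bar at the mean, and open diamonds are the single-end (SE) knockout and wild type libraries with exact 95% counting intervals. ALDH1A2 and RARB are lower in every knockout library than in every wild type library, and CRABP1 and CYP26B1 are higher.

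ALDH1A3 (ENSG00000184254, chromosome 15, 100877714 to 100916626), the only other ALDH1A gene that was expressed at more than traces, had 9.38 and 9.54 CPM in clone 2. It had 7.61, 9.67 and 8.76 CPM in clone 1, against 12.2, 11.2 and 12.1 CPM in wild type. Every knockout library was below every wild type library. ALDH1A3 stood at -0.32 on the log2 scale in clone 2 (SE 0.11, adjusted p = 0.0810) and fell by 0.44 in clone 1 (SE 0.099, adjusted p = 0.00876). Clone 2 passed the test with GC correction (adjusted p = 0.0416), with a term for the sample-number range (0.0244) and without clone 1 library 1 (0.0364). Low sample numbers alone gave -0.35 in clone 2 and -0.64 in clone 1. ALDH1A3-AS1, which shares exon sequence with ALDH1A3 on the opposite strand, had 356 counts in the clone 2 libraries, 547 in clone 1 and 362 in wild type. No source used here gives the strand setting of the counting, so reads of this pair of genes may be shared. ALDH1A1, a further family member, had 2 counts in all in clone 2, 5 in clone 1 and 9 in wild type.

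RDH10 and DHRS3, which form and remove retinaldehyde, were close to their wild type levels. RDH10 (ENSG00000121039, chromosome 8, 73294612 to 73325281) measured 23.0 and 19.4 CPM in the clone 2 libraries and 22.1, 20.6 and 21.9 CPM in those of clone 1, against 23.0, 21.6 and 22.7 CPM in wild type. DHRS3 (ENSG00000162496, chromosome 1, 12567910 to 12617731), itself a gene that retinoic acid raises in many cells, had 22.6 and 23.5 CPM in the clone 2 libraries and 26.5, 26.2 and 26.4 CPM in those of clone 1, against 24.3, 23.9 and 26.0 CPM in wild type. For RDH10 the groups overlapped, whereas DHRS3 lay just below the wild type range in clone 2 and just above it in clone 1. On the log2 scale RDH10 differed from wild type by -0.09 in clone 2 (95% interval -0.25 to 0.078), and by -0.06 in clone 1 (-0.21 to 0.085). DHRS3 stood at -0.10 in clone 2 (-0.24 to 0.033), and at 0.09 in clone 1 (-0.028 to 0.21). None of these values passed the test. Signs were not stable either: RDH10 turned to 0.02 in clone 2 within the low sample numbers, and DHRS3 to -0.03 in clone 1 with GC correction.

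Of the binding proteins for retinoic acid, CRABP1 passed the test in both clones and CRABP2 in clone 1. CRABP1 (ENSG00000166426, chromosome 15, 78340324 to 78348230) had 4.95 and 5.23 CPM in the clone 2 libraries and 7.92, 7.71 and 7.01 CPM in those of clone 1, against 3.82, 3.37 and 3.98 CPM in wild type. The groups did not overlap: clone 1 was highest, clone 2 lay between, and wild type was lowest. CRABP1 rose in clone 2 (log2 difference 0.45, SE 0.13, adjusted p = 0.0356) and in clone 1 (1.02, SE 0.11, adjusted p = 4.75e-05), and it was lower in clone 2 than in clone 1 (-0.57, SE 0.12, adjusted p = 0.0259). With low sample numbers alone, clone 2 stood at 0.40 (adjusted p = 0.123), clone 1 at 1.08 (0.000496) and clone 2 minus clone 1 at -0.69 (0.144). The clone 2 call was lost without wild type library 1, 2 or 3, clone 1 library 2, or clone 2 library 1 or 2 (adjusted p = 0.0506 to 0.208), with GC correction (0.111) and with DESeq2 (0.0766). The difference between clones was lost without wild type library 1, clone 1 library 1 or 2, or clone 2 library 1 or 2 (adjusted p = 0.0502 to 0.259).

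CRABP2 (ENSG00000143320, chromosome 1, 156699606 to 156705816), which carries retinoic acid to the receptors, had 4.51 and 4.02 CPM in the clone 2 libraries and 6.28, 5.34 and 4.96 CPM in those of clone 1, against 4.49, 3.57 and 4.27 CPM in wild type. Clone 1 lay above wild type, and clone 2 overlapped wild type. It stood at 0.05 on the log2 scale in clone 2 (SE 0.15, adjusted p = 0.897) and rose by 0.42 in clone 1 (SE 0.13, adjusted p = 0.0464). The clone 1 call is marginal: it was lost without any of wild type libraries 1, 2 and 3, clone 1 libraries 1 and 2, and clone 2 libraries 1 and 2 (adjusted p = 0.0555 to 0.191), with GC correction (0.145), with size factors from gene rows alone (0.0514) and with DESeq2 (0.0689). Within the low sample numbers it was 0.61 (adjusted p = 0.0256). The difference between the clones was -0.37 and did not pass the test (adjusted p = 0.384).

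RARB (ENSG00000077092, chromosome 3, 25174332 to 25597932), the receptor gene best known as a direct target of retinoic acid, was the least expressed of the 3 receptors and the one that fell. It had 1 and 6 counts in clone 2, 2, 6 and 0 counts in clone 1, and 15, 12 and 23 counts in wild type. In CPM these were 0.0248 and 0.128 in clone 2, 0.0604, 0.108 and 0 in clone 1, and 0.356, 0.342 and 0.558 in wild type. No knockout library reached the lowest wild type library. RARB fell by 2.36 on the log2 scale in clone 2 (SE 0.70, adjusted p = 0.0469) and by 2.72 in clone 1 (SE 0.64, adjusted p = 0.0119); clone 2 minus clone 1 was 0.36 and missed the threshold (adjusted p = 0.967). Within the low sample numbers the values were -3.93 in clone 2 (adjusted p = 0.0191), which rests on 1 library with 1 count, and -2.73 in clone 1 (0.0537, 1 library with 2 counts). The clone 2 call was lost without wild type library 1, 2 or 3 or without clone 2 library 1 or 2 (adjusted p = 0.0611 to 0.326, log2 fold change as far as -3.94 without clone 2 library 2), with GC correction (0.0557) and with DESeq2 (0.0806). RARB shares exon sequence with TOP2B on the opposite strand, which had 26019 counts in clone 2, 39670 in clone 1 and 39132 in wild type, so some RARB counts may belong to TOP2B. The log2 fold change of TOP2B was -0.16 in clone 2 (adjusted p = 0.168), and -0.11 in clone 1 (adjusted p = 0.212), and TOP2B passed the test in both clones within the low sample numbers (-0.26 in clone 2, -0.18 in clone 1).

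The RARB start region is shown because it holds the retinoic acid response element for which the gene is known. The sequence is the 250 bases before the start of the transcript at chr3:25428013-25428262 on the plus strand, from RefSeq on GRCh38.p14, with a direct repeat of receptor motifs in capitals.
RARB: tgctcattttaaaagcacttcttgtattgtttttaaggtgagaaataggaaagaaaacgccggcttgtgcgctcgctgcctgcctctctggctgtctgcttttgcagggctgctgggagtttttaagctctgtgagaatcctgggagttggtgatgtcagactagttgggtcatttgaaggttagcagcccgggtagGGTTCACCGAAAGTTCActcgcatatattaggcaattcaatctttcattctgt
The repeat lies 53 to 37 bases before the start. It was found by searching 300-base windows, 250 bases before and 50 after each start, on both strands. The search took any pair of motifs in the same direction with 5 bases between them, each motif spelled AGGTCA or GGGTCA or GGTTCA or AGTTCA. Such a repeat was present in 31 of the 35116 windows (0.0883%) and in 1 of the 17 windows of the 9 listed genes that had one. With 2 bases between the motifs it was present in 14 windows (0.0399%) and in none of the 17. Neither repeat was in a window of ALDH1A2 or CYP26B1. A match of letters is a description of the window and does not show that a receptor binds it in these cells.

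RARA (ENSG00000131759, chromosome 17, 40309192 to 40357643) and RARG (ENSG00000172819, chromosome 12, 53210567 to 53232980), the more abundant receptors, showed no such fall. RARA had 22.7 and 20.8 CPM in the clone 2 libraries and 21.5, 20.3 and 22.8 CPM in those of clone 1, against 20.2, 20.7 and 22.7 CPM in wild type. RARG had 28.9 and 21.9 CPM in the clone 2 libraries and 26.4, 23.8 and 27.7 CPM in those of clone 1, against 24.1, 24.2 and 24.1 CPM in wild type. Both clones overlapped wild type for both genes, and the clone 2 libraries differed most from each other at RARG. RARA differed from wild type by a log2 fold change of 0.03 in clone 2 (95% interval -0.13 to 0.19), and of 0.02 in clone 1 (-0.13 to 0.17). For RARG the values were 0.07 in clone 2 (-0.13 to 0.28), and 0.10 in clone 1 (-0.079 to 0.29). With GC correction all of these values turned negative (RARA -0.08 in clone 2 and -0.13 in clone 1, RARG -0.04 in both), so no direction can be given. When only low sample numbers were used, RARG in clone 2, then only the library with the higher of the pair of values, stood at 0.25 (adjusted p = 0.0352, with all the spread from wild type).

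CYP26B1 (ENSG00000003137, chromosome 2, 72129238 to 72148038), a cytochrome P450 that breaks down retinoic acid, had 18.0 and 16.9 CPM in the clone 2 libraries and 15.9, 16.6 and 19.3 CPM in those of clone 1. Wild type libraries had 12.5, 13.1 and 13.4 CPM. All knockout libraries lay above all wild type libraries, and the clones overlapped each other. CYP26B1 rose by a similar amount in clone 2 (log2 difference 0.42, SE 0.094, adjusted p = 0.0105) and in clone 1 (0.41, SE 0.085, adjusted p = 0.00563), and the difference between clones was 0.01 (95% interval -0.17 to 0.19). Within the low sample numbers it was 0.46 in clone 2 (adjusted p = 0.00540) and 0.29 in clone 1 (0.0583). The clone 2 call was lost without wild type library 1 (adjusted p = 0.0517) or clone 2 library 1 (0.104). CYP26A1, the better known retinoic acid-induced member of the same family, was low, at 1.61 and 1.81 CPM in the clone 2 libraries and 0.937, 1.68 and 2.27 CPM in those of clone 1, against 1.31, 1.23 and 0.752 CPM in wild type, and missed the threshold (0.65 in clone 2, adjusted p = 0.257, and 0.59 in clone 1, adjusted p = 0.198). Clone 1 passed without clone 1 library 1 (0.83, adjusted p = 0.0274), and its sign turned within the low sample numbers (-0.22, adjusted p = 0.734).

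All 10 genes passed the filter on low counts. Of the 9 other than ALDH1A2, 2 rose in clone 2 (CRABP1 and CYP26B1) and 1 fell (RARB), beside shares of 6.18% and 4.59% of all features called up and down in that comparison. In clone 1, 3 rose (CRABP1, CRABP2 and CYP26B1) and 2 fell (RARB and ALDH1A3), beside 9.37% and 6.64% of all features. Between the clones, ALDH1A2 was higher and CRABP1 lower in clone 2, 2 of the 10 genes, beside 1.1% and 0.993% of all features. Nothing is read from these shares, because the genes were chosen on a difference between the clones and wild type, and the comparisons of the clones share the wild type libraries. The median log2 fold change of the 9 genes was 0.03 in clone 2 and 0.09 in clone 1, beside 0.010 and -0.0018 over all features.

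**Figure D2:**
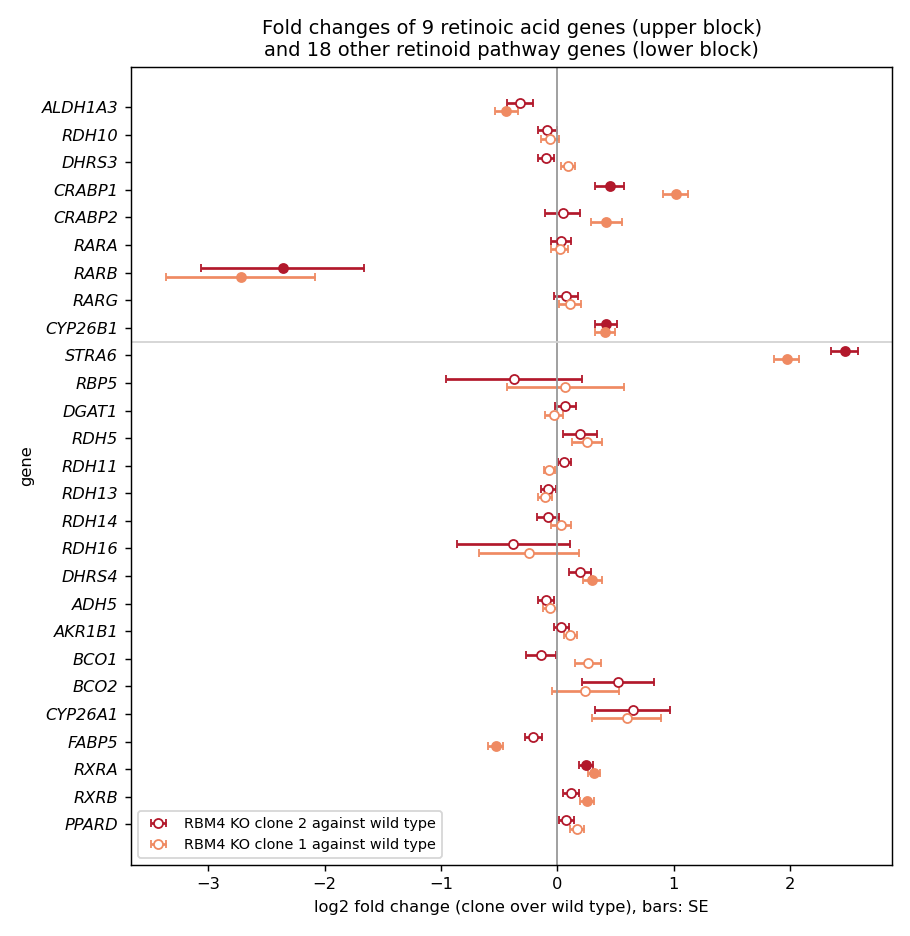
Log2 fold changes against wild type of 9 retinoic acid genes (above the grey line, ALDH1A2 left out) and 18 other retinoid pathway genes (below it), in clone 2 (dark) and clone 1 (light), with bars of 1 SE. Filled points passed the test at an adjusted p below 0.05. RARB lies left of 0 and CRABP1, CYP26B1, STRA6 and RXRA right of it in both clones, all filled.

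Per kilobase of exon, which allows levels to be set beside each other between genes, DHRS3 was the highest of the 10 in wild type at 8.15 ± 0.36 CPM per kb (SD, n = 3). ALDH1A2 was the second at 5.89 ± 0.26 CPM per kb, followed by RARG (4.70), RARA (4.49), RDH10 (4.22), CRABP1 (3.75), CRABP2 (3.73), CYP26B1 (2.59), ALDH1A3 (2.05) and RARB (0.113 ± 0.033). The ranges over libraries of RARG and RARA, of RARA and RDH10, of RDH10 and CRABP2, and of CRABP1 and CRABP2 overlapped, so their order is not set by these data. The length used joins all annotated exons of a gene, 8622 bases for ALDH1A2 and 3036 for DHRS3. Lengths of the transcripts present were not measured, so the order of genes, that of DHRS3 and ALDH1A2 included, may depend on this choice. In clone 2 ALDH1A2 stood at 0.0675 ± 0.0021 CPM per kb (SD, n = 2), below ALDH1A3 (1.64), and above RARB (0.0206). In clone 1 it stood at 0.0112 ± 0.0074 CPM per kb (SD, n = 3), with a range that overlapped that of RARB (0.0152 ± 0.015). ALDH1A3 RNA, less abundant per length than ALDH1A2 RNA in wild type, was thus the more abundant of the 2 in both clones.

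**Figure D3:**
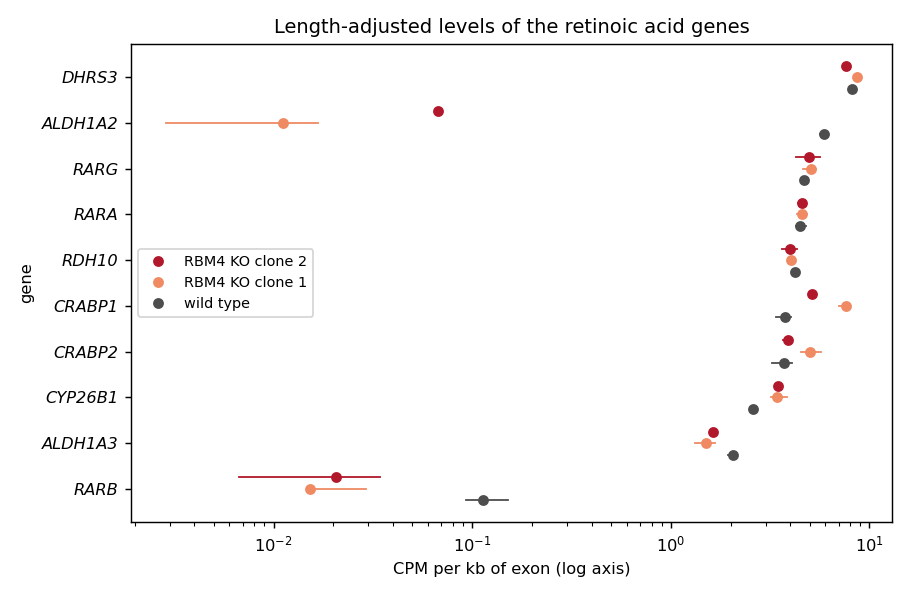
Length-adjusted levels of the 10 genes, as CPM per kb of all annotated exons on a log axis, ordered by the wild type level. Points are means over libraries of clone 2, clone 1 and wild type, and lines run from the lowest to the highest library (for RARB in clone 1, whose lowest library is 0, from the mean). ALDH1A2 is the second highest in wild type and far to the left in both clones.

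Among the other genes of vitamin A uptake, storage, conversion and signalling, 18 of 33 had enough counts to test. In clone 2, 2 rose (STRA6 and RXRA) and edgeR called 0 down, against 1 at an unadjusted p below 0.05 and 0 by DESeq2, with a median log2 fold change of 0.06. In clone 1, 4 rose (STRA6, RXRA, DHRS4 and RXRB) and 1 fell (FABP5), with a median of 0.14. Over all features, 6.18% were called up and 4.59% down in clone 2, and 9.37% up and 6.64% down in clone 1. STRA6, the membrane receptor that takes up retinol from its plasma carrier, had 12.1 and 12.2 CPM in the clone 2 libraries and 7.89, 8.88 and 8.98 CPM in those of clone 1, against 2.14, 2.28 and 2.16 CPM in wild type. The groups did not overlap, and clone 2 was the highest. It rose by 2.47 on the log2 scale in clone 2 (SE 0.11, adjusted p = 8.12e-09) and by 1.97 in clone 1 (SE 0.11, adjusted p = 7.98e-08). Low sample numbers alone gave 2.45 in clone 2 and 1.85 in clone 1. Clone 2 exceeded clone 1 by 0.50 (adjusted p = 0.0212), a call lost without clone 1 library 1 or 2 or clone 2 library 1 or 2 (adjusted p = 0.0557 to 0.197) and within the low numbers (0.142). CCDC33, which shares exon sequence with STRA6 on the opposite strand, moved with it, at 361 counts in clone 2, 398 in clone 1 and 95 in wild type (2.36 on the log2 scale in clone 2, and 1.94 in clone 1). Whether reads were shared between this pair was not tested.

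FABP5, a fatty acid carrier that also binds retinoic acid, had 50.3 and 47.6 CPM in the clone 2 libraries and 42.8, 36.2 and 38.5 CPM in those of clone 1, against 56.2, 54.4 and 58.7 CPM in wild type. Every knockout library lay below every wild type library, and clone 1 was the lowest. On the log2 scale it stood at -0.21 in clone 2 (adjusted p = 0.0978, or 0.0338 without clone 1 library 1) and fell by 0.53 in clone 1 (adjusted p = 0.000142). Clone 2 exceeded clone 1 at FABP5 by 0.32 (adjusted p = 0.0352), a call lost without any 1 library except clone 1 library 1 (0.0646 to 0.295) and within the low sample numbers (0.22, adjusted p = 0.267). FABP5 has many processed pseudogenes, to which the counting may have given some of its reads. RXRA, the partner of the retinoic acid receptors, had 45.1 and 46.1 CPM in the clone 2 libraries and 47.9, 46.8 and 49.0 CPM in those of clone 1, against 37.9, 38.1 and 39.4 CPM in wild type. All knockout libraries were above all wild type libraries. It rose by 0.24 in clone 2 (adjusted p = 0.0149) and by 0.31 in clone 1 (adjusted p = 0.00129), and the clone 2 call was lost without wild type library 1 or 2 or clone 2 library 1 or 2 (0.0849 to 0.138) and with GC correction (0.166). The clone 1 rises of DHRS4, a retinaldehyde reductase with near-identical gene copies and an antisense gene that shares its exons (0.30, adjusted p = 0.0272), and of RXRB, a further receptor partner (0.26, adjusted p = 0.0103), were both lost with GC correction (0.157 and 0.159) and without wild type library 1 (0.0637 for RXRB), and that of RXRB within the low sample numbers (0.0829). DHRS4 was also lost without wild type library 2 or 3 or clone 1 library 1 or 3 (0.0558 to 0.143 over its fits).

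**Figure D4:**
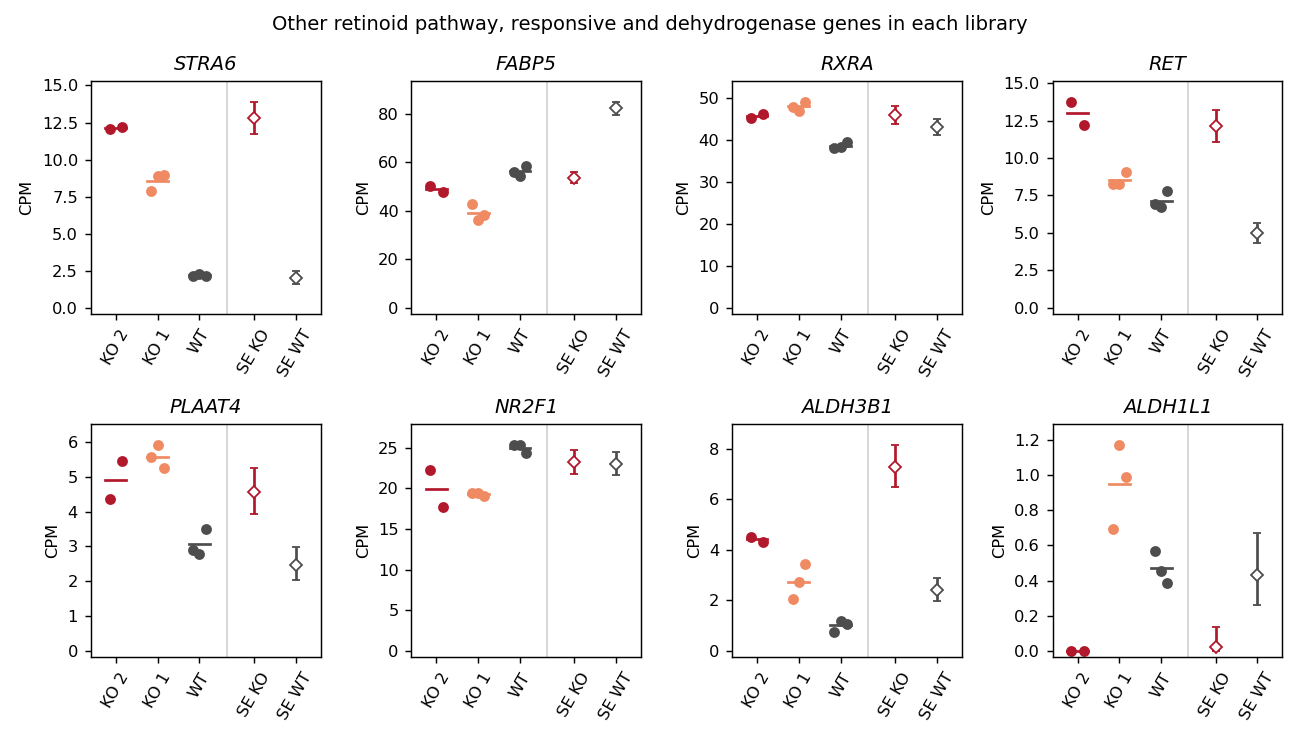
Levels of 8 further genes in each library, in CPM on linear axes from 0: STRA6, FABP5 and RXRA of the retinoid pathway, the retinoic acid-responsive genes RET, PLAAT4 and NR2F1, and the dehydrogenases ALDH3B1 and ALDH1L1. Filled points are paired-end libraries of clone 2 (KO 2), clone 1 (KO 1) and wild type (WT) with a bar at the mean, and open diamonds are single-end libraries with exact 95% counting intervals. STRA6 and ALDH3B1 are higher in every paired-end knockout library, and ALDH1L1 is at 0 in both clone 2 libraries.

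All 16 coactivator and corepressor genes of the receptors had enough counts to test. At the adjusted threshold edgeR called none in clone 2, where 0 rose and 2 fell at an unadjusted p below 0.05 and DESeq2 called 0. In clone 1 it called none up, with 2 at an unadjusted p below 0.05 and 0 by DESeq2, and 2 down: the coactivator NCOA3 (-0.26, adjusted p = 0.0149, or 0.0880 without wild type library 1) and the corepressor subunit TBL1XR1 (-0.23, adjusted p = 0.0151). TBL1XR1 was lost without wild type library 1, 2 or 3 (0.0506 to 0.0608) and with GC correction (0.550), and in clone 2 it stood at -0.20 (adjusted p = 0.0585, or 0.0277 to 0.0424 without clone 1 library 1, 2 or 3, 0.0475 with size factors from gene rows alone, 0.00515 within the low sample numbers and 0.00573 with the sample-number term). In clone 1 NRIP1, a corepressor, was called down within the low numbers (-0.75, adjusted p = 0.0366) and with that term (-0.69, 0.0228). Between the clones 0 were called, with 1 higher in clone 2 at an unadjusted p below 0.05 and 0 by DESeq2, and NRIP1 came nearest (0.54, adjusted p = 0.303). The median log2 fold change of the 16 was 0.03 in clone 2 and -0.02 in clone 1. Beside these counts, 6.18% of all features were called up and 4.59% down in clone 2, and 9.37% up and 6.64% down in clone 1. Between the clones, 1.1% of all features were called higher and 0.993% lower in clone 2.

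Of 28 genes that retinoic acid is known to raise, 22 could be tested, and most were called in neither clone. RARB, described above, is not among the 28, and STRA6 is also counted with the pathway genes. In clone 2, 3 rose (STRA6, RET and PLAAT4) and 2 fell (HOXA3 and NR2F1), beside 6.18% and 4.59% of all features called up and down, with a median log2 fold change of -0.10. In clone 1, 2 rose (STRA6 and PLAAT4) and 2 fell (NR2F1 and MEIS2), beside 9.37% and 6.64% of all features, with a median of -0.04. RET, a receptor tyrosine kinase gene, rose by 0.86 in clone 2 (adjusted p = 0.000131), stood at 0.25 in clone 1 (adjusted p = 0.104), and was higher in clone 2 than in clone 1 by 0.61 (adjusted p = 0.00570, or 0.0862 without clone 2 library 1). PLAAT4, a growth-inhibiting gene induced by retinoids, rose by 0.68 in clone 2 (adjusted p = 0.00940, lost without wild type library 1 or clone 2 library 2 at 0.0509 to 0.143 and within the low sample numbers at 0.0874) and by 0.86 in clone 1 (adjusted p = 0.000819). NR2F1, an orphan nuclear receptor, fell by 0.33 in clone 2 (adjusted p = 0.0332, lost without wild type library 1, 2 or 3 or clone 2 library 2 at 0.0650 to 0.334) and by 0.37 in clone 1 (adjusted p = 0.00696). The clone 2 fall of NR2F1 was also lost within the low sample numbers (-0.18, adjusted p = 0.168) and with the sample-number term (0.0635), and its single-end ratio of knockout over wild type was 1.01 (exact 95% interval 0.923 to 1.10). HOXA3 in clone 2 (-0.50) was lost without wild type library 1 or clone 2 library 1 or 2 (0.0594 to 0.135) and MEIS2 in clone 1 (-0.20) without wild type library 1 or 3 or clone 1 library 2 (0.0564 to 0.0951), with GC correction (0.212), with no count filter (0.0576), with the sample-number term (0.0511) and within the low numbers (0.110).

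Other aldehyde dehydrogenase genes could be tested in 13 of 17 cases. In clone 2, 1 rose (ALDH3B1) and 1 fell (ALDH1L1), with a median log2 fold change of -0.05. In clone 1, 4 rose (ALDH3A1, ALDH3B1, ALDH1L1 and ALDH4A1), with a median of 0.09, and 0 fell, against 2 at an unadjusted p below 0.05 and 0 by DESeq2. The shares of all features called were 6.18% up and 4.59% down in clone 2, and 9.37% up and 6.64% down in clone 1. ALDH3B1, which oxidises lipid-derived aldehydes, rose by 2.14 in clone 2 (adjusted p = 2.77e-05) and by 1.46 in clone 1 (adjusted p = 0.000554). ALDH1L1, a folate enzyme, had 0 counts in both clone 2 libraries, 128 in the 3 of clone 1 and 56 in the 3 of wild type, so that with a floor of 3 counts over the group it was at least 13.8-fold lower in clone 2 than in wild type. Its rise in clone 1 (1.03, adjusted p = 0.0343) was lost without wild type library 1, 2 or 3 or clone 1 library 2 or 3 (0.0666 to 0.132), with GC correction (0.0732) and with DESeq2 (0.0966). It was 0.55 within the low sample numbers (adjusted p = 0.458) and 0.56 with the sample-number term (0.400). ALDH3A1, an enzyme of aldehyde detoxification, stood at 0.35 in clone 2 (adjusted p = 0.623), rose by 2.01 in clone 1 (adjusted p = 0.000424), and was lower in clone 2 than in clone 1 (-1.66, adjusted p = 0.0106, or 0.137 without clone 2 library 2 and 0.191 within the low sample numbers). ALDH4A1 in clone 1 (0.32, adjusted p = 0.00968) was lost without wild type library 2 (0.0507) and with GC correction (0.0794).

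The chromosome around ALDH1A2 was examined next. Of 65 annotated genes that overlap the 1 Mb on either side, 15 had enough counts to test. In clone 2, 4 fell (ENSG00000274719, TCF12, MYO1E and POLR2M), and in clone 1, 4 fell (ENSG00000274719, FAM81A, TCF12 and MINDY2), beside 4.59% and 6.64% of all features called down in clone 2 and in clone 1. At an unadjusted p below 0.05, 7 were lower in clone 2 and 7 in clone 1, and DESeq2 called 2 down in clone 2 and 3 in clone 1. The edgeR test called 0 up, beside 6.18% of all features in clone 2 and 9.37% in clone 1. At an unadjusted p below 0.05, 0 were higher in clone 2 and 1 in clone 1, and DESeq2 called 0 up in either. The exception among the alternatives was MINDY2-DT, an RNA gene that stood at 164% of wild type in clone 2 and 175% in clone 1 by summed counts, which passed in clone 1 with the sample-number term (1.22, adjusted p = 0.0469). ENSG00000274719 is an RNA gene inside ALDH1A2 on the same strand (57990217 to 57990636), annotated as sense intronic, so its reads and those of unspliced ALDH1A2 RNA cannot be told apart. Its calls are therefore not separate from the fall of ALDH1A2 around which the genes were chosen. They do not count as a change in a neighbour. It had 1 and 1 counts in clone 2 and 0 in all clone 1 libraries, against 65, 42 and 48 counts in wild type, which puts it at least 56.3-fold lower in clone 1 with a floor of 3 counts over the group. The antisense gene ALDH1A2-AS1 had 0 counts in both clones and 8 in wild type, and AQP9 and LIPC, which overlap ALDH1A2 on the opposite strand, had 0 counts in every group.

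Genes outside ALDH1A2 moved far less. ADAM10, a membrane protease gene and the nearest tested one at 90.9 kb, stood at -0.11 in clone 2 (adjusted p = 0.321) and at -0.13 in clone 1 (adjusted p = 0.133), and clone 1 passed within the low sample numbers (-0.21, adjusted p = 0.0232) and with the sample-number term (-0.21, 0.0175). TCF12, a transcription factor gene, fell by 0.34 in clone 2 (adjusted p = 0.00704, or 0.0799 without clone 2 library 1) and by 0.23 in clone 1 (adjusted p = 0.0225, lost without wild type library 1, 2 or 3 or clone 1 library 3 at 0.0635 to 0.0812). Other falls lost the call without any of wild type libraries 1, 2 and 3: MYO1E (-0.25) and POLR2M (-0.23) in clone 2, and FAM81A (-0.35) and MINDY2 (-0.22) in clone 1. They were also lost without clone 2 library 1 or 2 for MYO1E and POLR2M, clone 1 library 2 for POLR2M, clone 1 library 1 for FAM81A and MINDY2, and clone 1 library 3 for FAM81A (adjusted p = 0.0531 to 0.230 over these fits). With GC correction POLR2M in clone 2 (0.445) and TCF12 (0.0964), MINDY2 (0.340) and FAM81A (0.0859) in clone 1 lost the call too. With DESeq2 it was lost for MYO1E (0.0524), POLR2M (0.0680) and FAM81A (0.0664), with the sample-number term for the same genes (0.0502, 0.0822 and 0.0559), and within the low numbers and with no count filter for MYO1E (0.101 and 0.0665) and FAM81A (0.114 and 0.0598). MINDY2 passed in clone 2 within the low numbers (-0.22, adjusted p = 0.0239) and with the term (-0.24, 0.0133). CGNL1, a cell junction gene, was lower in clone 2 than in clone 1 (-0.32, adjusted p = 0.0273), a call lost without wild type library 1 or 2, clone 1 library 2 or 3, or clone 2 library 1 or 2 (0.0514 to 0.262) and within the low sample numbers (0.221). The median log2 fold change of the 15 genes, with ENSG00000274719 among them, was -0.16 in clone 2 and -0.12 in clone 1. MYO1E and FAM81A share exon sequence on opposite strands, and POLR2M and GCOM1 share it on the same strand. Reads of these genes may therefore be shared, and their values may not be separate.

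**Figure D5:**
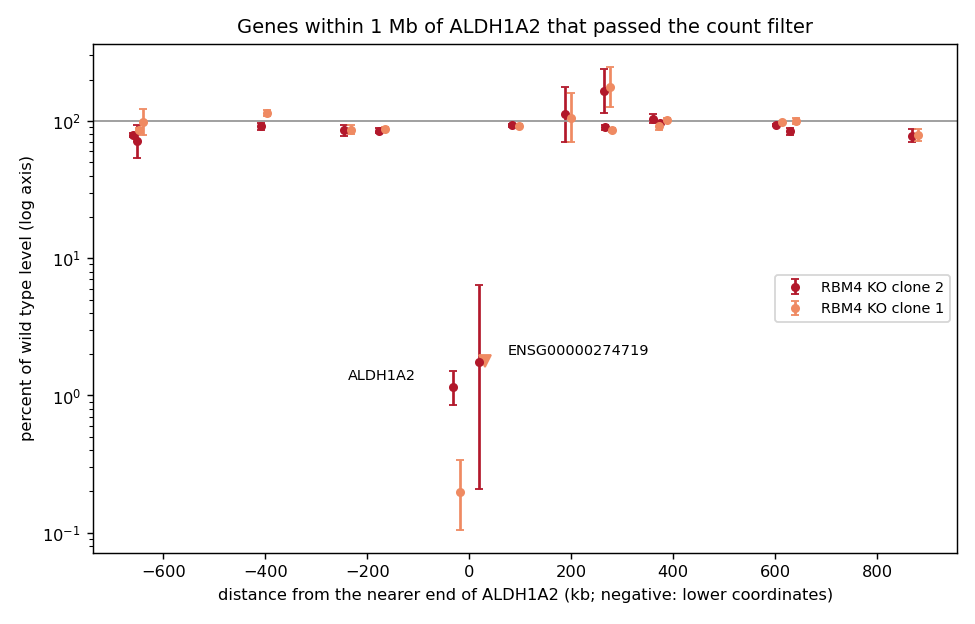
Level of each tested gene within 1 Mb of ALDH1A2 as a percentage of wild type, on a log axis, against its distance from the nearer end of ALDH1A2 in kb. Points are summed counts of clone 2 and clone 1 over those of wild type with exact 95% intervals that cover counting error only, and the triangle is an upper limit from 0 counts. Points of the clones are set slightly apart, and ALDH1A2 and ENSG00000274719, which lie at distance 0, are drawn to either side of it: both stand far below the others, which lie between 71.2% and 175% of wild type.

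The genes whose levels across the 8 paired-end libraries were most like those of ALDH1A2, by Pearson correlation of log2 CPM among 14195 features, were GTPBP4 (0.994), HK2 (0.994), CHN1 (0.992), TBC1D4 (0.990) and NSMCE4A (0.990). These values are a description and mostly show which genes order the libraries as clone 1, clone 2 and wild type. Their differences were far smaller than that of ALDH1A2: CHN1 had 50.8 and 49.5 CPM in the clone 2 libraries and 43.2, 43.2 and 42.5 CPM in those of clone 1, against 66.8, 66.2 and 69.0 CPM in wild type. GTPBP4 had 183 and 185 CPM in the clone 2 libraries and 179, 179 and 168 CPM in those of clone 1, against 218, 221 and 220 CPM in wild type.

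The single-end pair, 1 library each and thus without a test, gave a further look at the same genes in CPM of total counts. ALDH1A2 had 33 counts in the knockout library and 3137 in the wild type library, or 0.800 CPM in the knockout library and 71.1 CPM in the wild type library, a ratio of 0.0113 (exact 95% interval 0.00773 to 0.0158). RARB had 9 counts in the knockout library and 44 in the wild type library, a ratio of 0.219 (0.0939 to 0.454). CYP26B1 stood at 22.3 CPM in the knockout library and 14.1 CPM in the wild type library, a ratio of 1.58 (1.42 to 1.75). These were the same directions as in the paired-end libraries. CRABP1 had a ratio of 1.38 (1.10 to 1.73), DHRS3 1.24 (1.13 to 1.35), RDH10 0.892 (0.810 to 0.982) and ALDH1A3 0.800 (0.687 to 0.930), while those of CRABP2, RARA and RARG had intervals that included 1. All 10 genes had at least 20 counts in the pair, and of them 2 were at least 2-fold lower (ALDH1A2 and RARB) and none at least 2-fold higher, beside 1.65% and 3.82% of all features with that many counts. Nothing is read from these shares, because the genes were chosen around the loss of ALDH1A2. STRA6 had 12.8 CPM in the knockout library and 2.02 CPM in the wild type library, a ratio of 6.33 (5.05 to 8.02). ALDH1L1 had 1 count in the knockout library and 19 in the wild type library (ratio 0.0563, 0.00135 to 0.354), and ENSG00000274719 had 0 in the knockout library and 65 in the wild type library. Other listed or neighbouring genes called down in a clone were not all lower in the pair. FABP5 (ratio 0.651), TCF12 (0.882) and FAM81A (0.602) had intervals below 1. TBL1XR1 (1.07, 1.03 to 1.12) and MINDY2 (1.07, 1.001 to 1.14) had intervals above 1. For HOXA3, NCOA3, NR2F1, MEIS2, MYO1E and POLR2M the intervals included 1. Of further listed genes called up in a clone, ALDH3B1 (ratio 3.04), RET (2.43), PLAAT4 (1.84) and RXRB (1.09) had intervals above 1. Those of RXRA (1.07, 0.999 to 1.14), DHRS4 (1.04), ALDH4A1 (1.01) and ALDH3A1 (0.921, 0.551 to 1.53) included 1. Intervals cover counting error only, and reads are not independent molecules.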

How the data were processed

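The authors deposited whole-number read counts per gene and per repeat subfamily, not normalized. One table holds the paired-end libraries and another the single-end pair. Per the labels' protocols, a stranded mRNA kit was used. Per the submitters' processing notes, STAR 2.5.2a aligned the reads to hg38 (GRCh38). TEToolkit is named as the counter by the deposited tables' own names; no source used here gives its version, annotation, strand setting or handling of reads with several alignments. Symbols were found for 56948 of 58051 gene identifiers, and GENCODE 29 coordinates for 57447.

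edgeR's filterByExpr left 20747 features, with all 10 genes among them. Counts were scaled by TMM factors and compared by quasi-likelihood F tests in edgeR (1 mean per group, 8 libraries, robust). Benjamini-Hochberg adjustment ran over all 20747, and calls needed an adjusted p below 0.05. SE was taken as log2 fold change over the square root of F, in absolute value, which is approximate and too small for few counts. Intervals of log2 fold changes are 1.96 SE on either side. Versions were R 4.3.3 with edgeR 4.0.16, limma 3.58.1 and, as an alternative, DESeq2 1.42.0; the code was tested on simulated counts. Replicate libraries differed beyond sampling noise (chi-square over degrees of freedom 4.54 to 22.1). RefSeq promoter windows were matched by symbol for 9 of the 10 genes (not RDH10).

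The 10 genes and all lists were chosen with earlier results of these data known. Named are the 10, RBM4, per list and contrast up to 3 called genes a direction with the largest change (or the smallest p where none was called), tested genes within 1 Mb of ALDH1A2, and the 5 genes most correlated with it at a mean log2 CPM of at least 1. RXRB, ALDH4A1, MEIS2, CYP26A1, CCDC33, TOP2B, ALDH1A3-AS1 and ALDH1A1 were named after their values were seen. Some listed genes are not reported here and are left out of all list counts and medians. Alternatives were DESeq2, other size factors, no count filter, each library left out, a replicate block, GC correction by loess, and the sample-number range.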

Additional observations from a re-analysis of the deposited data

Results flagged for a closer look

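The effect against wild type differed between the clones, by edgeR's quasi-likelihood test of clone 2 minus clone 1, for 8 of the genes named. Over all features, 1.1% were called higher and 0.993% lower in clone 2 than in clone 1. Nothing is read from the count of 8, because some genes were named for a call in this same comparison. Of the 10 retinoic acid genes these were ALDH1A2 (log2 2.50, adjusted p = 0.00103) and CRABP1 (-0.57, adjusted p = 0.0259). Of the other genes, RET (0.61, adjusted p = 0.00570), STRA6 (0.50, adjusted p = 0.0212) and FABP5 (0.32, adjusted p = 0.0352) were higher in clone 2 than in clone 1. ALDH3A1 (-1.66, adjusted p = 0.0106) and CGNL1 (-0.32, adjusted p = 0.0273) were lower in clone 2. ALDH1L1 was at 0 counts in clone 2, so its fitted value of -8.35 (adjusted p = 8.64e-05) depends on the prior count and is no measure of size. Within the low sample numbers, where each clone has 1 library, the call was lost for ALDH1A2 (adjusted p = 0.0832), CRABP1 (0.144), STRA6 (0.142), FABP5 (0.267), ALDH3A1 (0.191) and CGNL1 (0.221), and for FABP5, CRABP1, STRA6 and CGNL1 it was also lost without several single libraries. The clones share no libraries, and each is a single clone.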

How the results depend on the processing

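No log2 fold change of a named gene whose call passed changed its sign under any alternative. Of the recomputed values of single genes, 2437 were labelled unchanged, 181 lost a call and 43 gained one. The unchanged values include untested ones, namely ALDH1A2 against wild type and the single-end ratios, which were judged by how far they moved. For the others, unchanged means that the call stayed the same. The number of the 9 genes called in clone 2 against wild type was 3, and 1 with DESeq2, 1 with the replicate block and 1 with GC correction and the block together. It was 0 to 4 with 1 library left out: 0 without clone 2 replicate 1 or wild type replicate 1. In clone 1 it was 5, and 3 with DESeq2, which gave RARB no adjusted p, 3 within the low sample numbers, and 4 to 5 with 1 library left out. Between the clones it was 2 of 10, and 1 with the replicate block, 1 with GC correction and the block, 0 within the low sample numbers, and 1 to 2 with 1 library left out. Features called between the clones numbered 434, 688 with no count filter, 224 within the low sample numbers and 224 to 418 with 1 library left out. Against wild type they numbered 1033 to 2747 with 1 library left out in clone 2 (2236 with all) and 1605 to 3229 in clone 1 (3321 with all). Replicate numbers did not pair wild type with the clones (correlations of same-numbered deviations -0.23 to 0.054), and not every library correlated best with its own number. Between the clones, same-numbered deviations correlated at 0.25 for replicate 1 and 0.20 for replicate 2. In both clones replicate 1 has a low sample number and replicate 2 a high one, so replicate number and sample-number range cannot be told apart there. With the block, 2526, 3716 and 431 features were called in clone 2, in clone 1 and between the clones, and calls were lost for CRABP1 in clone 2 (adjusted p = 0.0601) and between the clones (0.0504), RARB (0.0731) and MYO1E (0.0551) in clone 2, and ALDH1L1 in clone 1 (0.0530). Depth limits RARB, with at most 23 counts in a paired-end library. The single-end ratios computed relative to gene counts alone stayed within the intervals given.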
